A study of Mus musculus with 8 samples.

Results

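Transcripts of the insulin-like growth factor (IGF) pathway were followed in the pSHF, the posterior second heart field, of mouse embryos at E9.5. This mesenchyme behind the heart gives rise to the atrial septum. The members are 8 genes: the ligand Igf1, its receptor Igf1r, the adaptor Irs1, and the binding proteins Igfbp2, Igfbp3, Igfbp4, Igfbp5 and Igfbp7. They were chosen by gene name, and every probe carrying one of these names was taken, which gave 20 probes of 41174 on the array (8 of 27827 gene names). Of the 20 probes, 18 were tested. To be tested, a probe had to be marked well above background by the scanner software on each of the 4 arrays of 1 group or of both. The study compared 4 RNA pools of embryos heterozygous for a Tbx5 mutation, labelled Tbx5-/+, with 4 pools of wild-type embryos, labelled Tbx5 WT. Both groups were at embryonic day 9.5, and their dams had received gonadotropins to enlarge the litters. The Tbx5-/+ mice were kept on a mixed background. All tissues of these embryos carry the mutation, including the foregut that stays attached in the dissection, and the number of embryos in a pool is not given in the sources used here. The sample titles name embryos 1, 5, 6 and 7 in both groups, whereas the description of the design calls the samples pools, the word used here. The titles place numbers 1 and 5 on array 1 and numbers 6 and 7 on array 2. The scanner headers give these as 2 slides.

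IGF1 and IGF2 are secreted growth factors that bind the IGF1 receptor, a tyrosine kinase at the cell surface. The activated receptor phosphorylates adaptors such as IRS1, which pass the signal to PI3 kinase and Akt and to the Ras and MAP kinase chain, and so promote growth, division and survival of cells. IGF binding proteins hold the ligands in the extracellular space, where they can shield them from the receptor, carry them or release them after cleavage by proteases such as PAPPA. IGFBP7 binds IGFs only weakly and is often counted as a related protein. In the embryo the pathway is known mainly as a driver of growth, including that of the heart wall. TBX5 is a T-box transcription factor needed for atrial septation.

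Levels are log2 values after variance-stabilizing normalization (VSN), which puts the arrays on a common scale, and a difference is the mean of Tbx5-/+ minus the mean of Tbx5 WT. The tests are limma's moderated test on 8 arrays, adjusted by Benjamini-Hochberg over the 20028 probes tested, and a two-sided exact permutation test, which has 70 assignments of arrays to groups and a smallest p of 0.0286. The pools of both groups that carry the same number deviated together, so a second fit that compares them within each number (the replicate block) is given where it changes a call. The share of spots well above background was 45.0% to 52.8% on the Tbx5-/+ arrays and 50.9% to 63.6% on the Tbx5 WT arrays. On the Tbx5 probe A_52_P523712 the Tbx5-/+ levels were 8.996, 9.73, 9.16 and 8.62 in numbers 1, 5, 6 and 7, all below the Tbx5 WT levels of 11.46, 11.56, 10.42 and 11.54 (limma, adjusted p = 0.0906; 0.0333 with the replicate block). A second Tbx5 probe, A_51_P469338, gave a difference of -0.15 with overlapping groups (limma, adjusted p = 0.792). All 10 marker genes listed for the pSHF, Tbx5 among them, were measured, with 7 lower and 3 higher. At an unadjusted limma p under 0.05, 6 were lower, Tbx5 included, where 18.6% of all probes were. After adjustment 0 passed, and with the replicate block 6 did, all lower, where 10.8% of all probes were called lower. The summed level of the 10 had a log2 ratio of 0.136 (exact permutation p = 0.971). Array Tbx5-/+ 1 stood apart, with a summed level of the pSHF markers of 18000 on the linear scale. This sum was 54700 to 63200 on the other Tbx5-/+ arrays and 33400 to 60600 in Tbx5 WT. A linear sum mostly follows the brightest markers, here Wnt2 and Aldh1a2 (means of 14.06 and 13.82 in Tbx5-/+). The VSN scale factor of Tbx5-/+ 1 was 31.6, against 56.21 to 85.75 on the other Tbx5-/+ arrays and 29.38 to 34.8 in Tbx5 WT. Values are also given without Tbx5-/+ 1. The median difference over all probes tested was -0.19 under VSN. It was -0.21 in the values deposited by the authors, -0.01 after quantile normalization, 0.10 after scaling to the 75th percentile and 0.13 with arrays centred on their medians.

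The members as a group were lower more often than higher in Tbx5-/+, and none passed the adjusted threshold. The receptor and the binding proteins Igfbp3, Igfbp4 and Igfbp5 had differences between -0.58 and -1.23 on the 7 of their probes that were well above background on all 8 arrays, whereas both probes of Irs1 were above 0 and Igfbp2 and Igfbp7 were near 0, on either side of it by scaling. Of the 18 tested probes 4 entered through the Tbx5 WT arrays alone (Igfbp3 A_51_P228472 and A_52_P851352, Igfbp4 A_51_P398971 and Igfbp5 A_51_P204153), which favours a lower value in Tbx5-/+, and 0 entered through the Tbx5-/+ arrays alone. The median difference over the 18 probes was -0.60, beside -0.19 for all probes, with 14 lower and 4 higher, and is given as a description. Of the 14 probes well above background on 8 arrays, 10 were lower and 4 higher. With limma, 0 of the 18 had an adjusted p under 0.05, as was true of all probes (0 of 20028, 0%; smallest adjusted p 0.0906). At an unadjusted p under 0.05 there were 7 member probes, all lower: the 4 of Igf1r, A_52_P253179 and A_52_P851352 of Igfbp3, and A_52_P281702 of Igfbp5. Of all probes tested, 18.6% were lower and 3.28% were higher by the same rule. Fitted on the probes well above background on 8 arrays, 6 of the 14 member probes and 16.9% of all such probes were lower. For 3 member probes all 4 Tbx5-/+ values lay below all 4 Tbx5 WT values, and for 0 they lay above, where the shares among all probes were 9.01% and 0.749%. One of the 3, Igfbp3 A_52_P851352, is among those that entered through Tbx5 WT alone, which leaves 2.

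The number of member probes called moved with the fit and with 1 array. With the replicate block 3 member probes passed, all lower: 2 of Igf1r and 1 of Igfbp4. Counted by the brightest probe of each gene, 0 of the 8 members passed in that fit. The Igfbp4 probe is among those that entered through Tbx5 WT alone, and 2 passed without such probes. In that fit 10.8% of all probes were called lower and 0.379% higher. Without Tbx5-/+ 1, 9 member probes were called lower and 2 higher (6 and 2 among those well above background on 8 arrays), where 12% of all probes were called lower and 7.04% higher. At an unadjusted p under 0.05, the 7 probes became 11 with the replicate block and 14 without Tbx5-/+ 1. They became 4 after percentile scaling (3 lower and 1 higher) and 3 after centring (2 lower and 1 higher). Of all probes, 21.85% had such a p under VSN, 34.75% with the replicate block and 41.74% without Tbx5-/+ 1. The share was 24.03% after percentile scaling and 22.88% after centring. Counted over the whole array by the same unadjusted rule, the share of calls that were lower was 85.0% under VSN, 49.6% after quantile normalization, 36.1% after percentile scaling and 29.2% after centring. Among the 18 member probes 14 were lower under VSN, 13 after quantile normalization and 12 under each of the percentile and centred scalings.

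**Figure D1:**
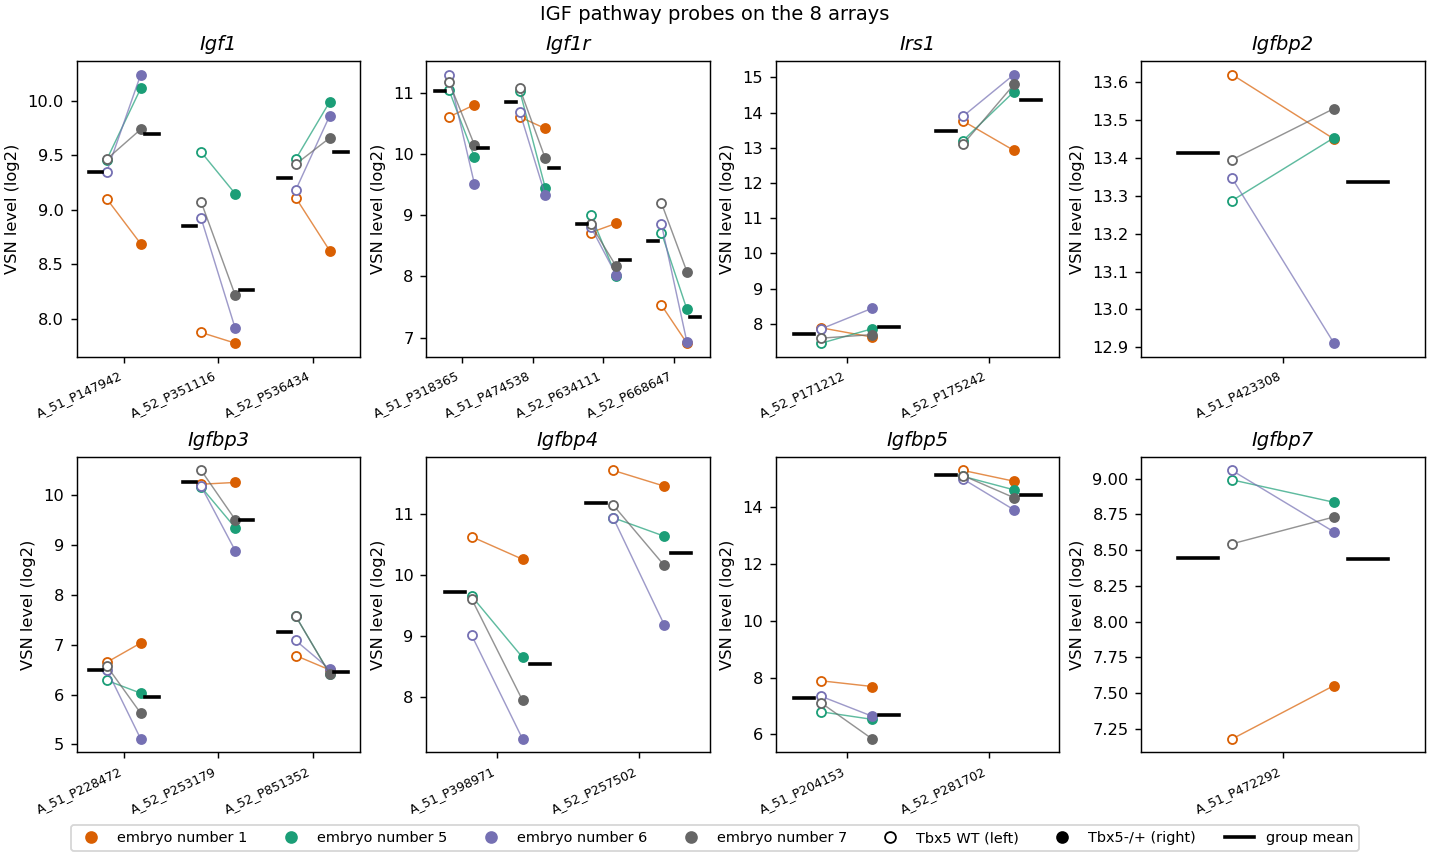
VSN level (log2, vertical axis, a separate range in each panel) of the 18 tested probes of the 8 genes, with Tbx5 WT as open and Tbx5-/+ as filled circles, colours and thin lines joining pools of the same number, and thick bars for group means (n = 4 each). Most lines of Igf1r, Igfbp3, Igfbp4 and Igfbp5 slope down, and number 1 is often flatter than numbers 5, 6 and 7 or slopes the other way.

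Igf1, the ligand, had no common direction over its probes. Probe A_52_P536434 (mm9, chr10:87376418-87376477, plus strand) lies in the part that encodes the mature hormone, shown here because it measures the message that makes the ligand, with its in-frame cysteine codons in capitals.
Igf1 A_52_P536434: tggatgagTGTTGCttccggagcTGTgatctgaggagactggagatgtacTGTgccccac
Its 4 capitalised codons belong to the cysteines that fold IGF1 into its insulin-like shape. On this probe the Tbx5-/+ levels were 8.63, 9.99, 9.86 and 9.66 in numbers 1, 5, 6 and 7, and the Tbx5 WT levels were 9.11, 9.46, 9.18 and 9.42. Numbers 5, 6 and 7 of Tbx5-/+ thus lay above every Tbx5 WT pool, and number 1 lay below them. The difference was 0.24 ± 0.30 (SE, n = 4 per group; limma, adjusted p = 0.629). Without Tbx5-/+ 1 it was 0.54 (adjusted p = 0.0564), and without Tbx5-/+ 5 it was 0.088 (adjusted p = 0.8835). It was 0.54 to 0.60 under the quantile, percentile and centred scalings.

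The probe A_51_P147942, which begins at base 844 of the same RefSeq transcript (chr10:87393516-87393575) and was spotted 10 times, tracked it closely across the arrays (r = 0.975 over 8 arrays, a description). Its levels were 8.69, 10.12, 10.24 and 9.74 in Tbx5-/+ and 9.10, 9.46, 9.35 and 9.47 in Tbx5 WT, a difference of 0.35 ± 0.32 (limma, adjusted p = 0.511). Without Tbx5-/+ 1 that difference was 0.69 and passed (adjusted p = 0.0400), and without Tbx5-/+ 6 it was 0.17 (adjusted p = 0.840). The third probe, A_52_P351116, begins at base 3895 (chr10:87396567-87396626) and pointed the other way, being lower within each of the 4 numbers. Its levels were 7.78, 9.15, 7.91 and 8.22 in Tbx5-/+ and 7.87, 9.53, 8.92 and 9.07 in Tbx5 WT, a difference of -0.59 ± 0.40 (limma, adjusted p = 0.374; 0.0934 with the replicate block). The differences of A_51_P147942 and A_52_P351116 were 0.94 apart, which an exact permutation test did not set beyond the spread of the arrays (p = 0.0857; 0.429 after Benjamini-Hochberg over 15 pairs of probes of 1 gene). The remaining probe, A_52_P306327, placed on a cDNA clone, was well above background on 2 Tbx5-/+ and 3 Tbx5 WT arrays and was not tested.

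Igf1r, the receptor that carries the signal of both IGF ligands into the cell, was lower on all 4 of its probes at an unadjusted p under 0.05. It held the smallest p of the members, on A_51_P474538, which begins at base 10422 of the RefSeq transcript, far toward its end (mm9, chr7:75376998-75377057, plus strand). The first 30 bases of that probe identify the stretch measured.
Igf1r A_51_P474538: gtagtcgttgacgaagctctggtttacaag
The Tbx5-/+ levels were 10.42, 9.45, 9.33 and 9.93 in numbers 1, 5, 6 and 7, and the Tbx5 WT levels were 10.61, 11.04, 10.69 and 11.08. The groups did not overlap, although Tbx5-/+ 1 lay only 0.19 below Tbx5 WT 1. The difference was -1.07 ± 0.27 (SE, n = 4 per group), a 2.10-fold lower level, with an unadjusted p of 0.00252 and an adjusted p of 0.104 in limma. The exact permutation p was 0.0286, the smallest possible. The replicate block brought the adjusted p to 0.0407. Leaving out Tbx5-/+ 1 gave a difference of -1.28 with an adjusted p of 0.0115. On array 1 alone the difference was -0.89 and on array 2 it was -1.25.

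The other Igf1r probes gave values on the same side. On A_51_P318365 (chr7:75371556-75371615, from transcript base 4980) the levels were 10.81, 9.95, 9.51 and 10.15 in Tbx5-/+ and 10.61, 11.05, 11.30 and 11.18 in Tbx5 WT, a difference of -0.93 ± 0.29 (limma, adjusted p = 0.155; 0.0186 without Tbx5-/+ 1). Here number 1 went the other way by 0.20, so the groups overlapped. On A_52_P634111 (chr7:75372500-75372559, from base 5924) the difference was -0.58 ± 0.23 (limma, adjusted p = 0.205; 0.0183 without Tbx5-/+ 1). A_52_P668647 lies on a cDNA clone upstream in the locus (chr7:75332515-75332574), and it was lower within each of the 4 numbers, with differences of -0.62 in number 1 and of -1.93 to -1.12 in the others. Its levels were 6.91, 7.46, 6.93 and 8.08 in Tbx5-/+ and 7.53, 8.72, 8.86 and 9.20 in Tbx5 WT, a difference of -1.23 ± 0.39 (limma, adjusted p = 0.161; 0.0342 with the replicate block). Without Tbx5-/+ 1 it was -1.09 and did not pass (adjusted p = 0.0874).

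No pair of Igf1r probes differed from each other after adjustment over the 15 pairs. A single pair at the smallest possible p could not pass that adjustment, so this does not show that the probes agree. The lowest exact permutation p (0.0286, adjusted 0.429) was that of A_51_P474538 and A_52_P634111, whose differences were 0.49 apart. All 4 probes kept their sign under the other scalings: after scaling to the 75th percentile the differences ran from -1.13 to -0.36, and with centred arrays from -0.91 to -0.26.

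By level over the 8 arrays, the 3 probes of other named genes most like Igf1r A_51_P474538 were those of Ncoa7 (r = 0.996), Brwd1 (r = 0.994) and Gatad2b (r = 0.994). Of 18757 probes searched, 191 had an r over 0.95, and all points share the same 8 arrays.

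Irs1 couples the receptor to PI3 kinase, and its brighter probe had the highest difference of the members. On A_52_P175242 (chr1:82229692-82229751, minus strand, from transcript base 9091) the levels were 12.93, 14.60, 15.08 and 14.80 in Tbx5-/+ and 13.76, 13.21, 13.90 and 13.10 in Tbx5 WT. Numbers 5, 6 and 7 of Tbx5-/+ lay above every Tbx5 WT pool, and number 1 lay below them all. The difference was 0.86 ± 0.44 (limma, adjusted p = 0.264), and without Tbx5-/+ 1 it was 1.34 (adjusted p = 0.0148). Within array 1, which holds number 1, it was 0.28, and within array 2 it was 1.44. The second probe, A_52_P171212 (chr1:82233564-82233623, from base 5219), ran from 7.62 to 8.45 in Tbx5-/+ and from 7.45 to 7.89 in Tbx5 WT, a difference of 0.21 ± 0.23 (limma, adjusted p = 0.587). Neither probe changed its sign under another scaling. The third probe named Irs1, A_52_P63931, was designed on the opposite strand to the RefSeq probes and was well above background on 1 Tbx5-/+ and 0 Tbx5 WT arrays, so it was not tested.

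**Figure D2:**
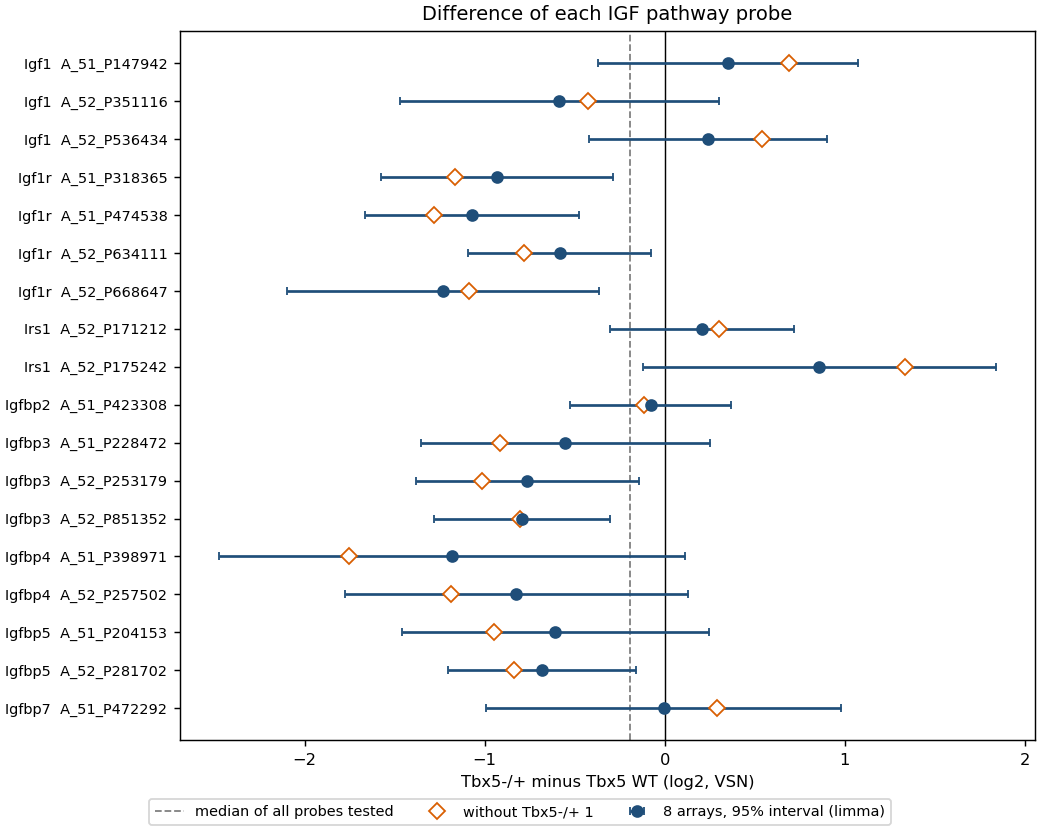
Difference between Tbx5-/+ and Tbx5 WT (log2, horizontal axis) for the 18 tested probes. Filled circles with bars give limma's estimate and its 95% interval over 8 arrays, open diamonds give the estimate without Tbx5-/+ 1, and the dashed line marks the median of all probes (-0.19). Igf1r, Igfbp3, Igfbp4 and Igfbp5 lie to the left of the dashed line on every probe, and Irs1 lies to the right on both.

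Igfbp5, a secreted and matrix-bound protein, was the binding protein whose brightest probe separated the groups. That probe, A_52_P281702 (mm9, chr1:72904829-72904888, minus strand, from transcript base 5604), begins with these 30 bases.
Igfbp5 A_52_P281702: cacatcacatattactgtagctctctatag
Its levels were 14.92, 14.62, 13.91 and 14.34 in Tbx5-/+ and 15.30, 15.09, 15.00 and 15.12 in Tbx5 WT. Every Tbx5-/+ pool lay below every Tbx5 WT pool, and the Tbx5 WT pools lay close together. The difference was -0.68 ± 0.23 (limma, unadjusted p = 0.0159, adjusted p = 0.181; 0.0555 with the replicate block), 1.60-fold, and without Tbx5-/+ 1 it was -0.84 with an adjusted p of 0.0296. It was -0.43 on array 1 and -0.93 on array 2. It shrank to -0.30 after scaling to the 75th percentile and to -0.36 with centred arrays, and it was -0.785 after quantile normalization. A dimmer probe, A_51_P204153 (chr1:72907366-72907425, from base 3067), was well above background on 2 Tbx5-/+ and 4 Tbx5 WT arrays and gave -0.61 ± 0.38 (limma, adjusted p = 0.340).

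Igfbp2 is the neighbour of Igfbp5 on chromosome 1, and its probe lies 6092 bases from the nearest Igfbp5 probe, on the other strand. On A_51_P423308 (chr1:72898677-72898736) the levels were 13.45, 13.45, 12.91 and 13.53 in Tbx5-/+ and 13.62, 13.29, 13.35 and 13.40 in Tbx5 WT. The groups overlapped, and the difference of -0.08 ± 0.20 had a 95% interval from -0.52 to 0.37 (limma, adjusted p = 0.833), with its sign turned to 0.31 by scaling to the 75th percentile and to 0.25 by centring. Set against each other within each array, which leaves little to the scaling, Igfbp2 and Igfbp5 changed by amounts 0.60 apart, and the 4 Tbx5-/+ values of that contrast all lay above the 4 Tbx5 WT values. The exact permutation p was 0.0286, the smallest possible, and 0.286 after Benjamini-Hochberg over the 10 pairs of binding proteins. None of the 10 pairs passed, and a single pair at the smallest possible p cannot pass this adjustment. With signs flipped within numbers the exact p for this pair was 0.125, the smallest that 4 numbers allow, so that test could call no pair.

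Igfbp3, the main carrier of IGFs in blood, was measured by 3 probes. The probe of its coding part is shown because it spans 1010 bases of the genome (mm9, chr11:7108469-7109478, minus strand) and so crosses at least 1 splice junction. Its in-frame cysteine codons are in capitals.
Igfbp3 A_51_P228472: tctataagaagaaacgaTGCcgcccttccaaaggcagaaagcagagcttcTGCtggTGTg
It was well above background on 1 Tbx5-/+ array and on the 4 Tbx5 WT arrays, and its difference was -0.55 ± 0.36 (limma, adjusted p = 0.357; 0.0338 without Tbx5-/+ 1). The brighter probe A_52_P253179 (chr11:7106594-7106653, from transcript base 1882) gave 10.25, 9.34, 8.89 and 9.51 in Tbx5-/+ and 10.21, 10.16, 10.17 and 10.49 in Tbx5 WT. Numbers 5, 6 and 7 of Tbx5-/+ lay below all Tbx5 WT pools, and number 1 lay among them. The difference was -0.76 ± 0.28 (limma, unadjusted p = 0.0211, adjusted p = 0.194; 0.0176 without Tbx5-/+ 1), and -0.42 to -0.44 under the quantile, percentile and centred scalings. On A_52_P851352, placed on a cDNA clone (chr11:7111815-7111874), the levels were 6.50, 6.42, 6.51 and 6.42 in Tbx5-/+ and 6.78, 7.58, 7.09 and 7.57 in Tbx5 WT, without overlap. Its difference was -0.79 ± 0.22 (limma, adjusted p = 0.126; 0.0433 without Tbx5-/+ 1), and it was well above background on 1 Tbx5-/+ and 4 Tbx5 WT arrays.

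Igfbp4 binds both IGFs and is cleaved by PAPPA. Under VSN on 8 arrays it had larger differences and a wider spread between Tbx5-/+ pools than Igfbp3 and Igfbp5. After quantile normalization its brighter probe was at -0.532, beside -0.785 for the brighter probe of Igfbp5. Its coding probe, with the in-frame cysteine codon in capitals (mm9, chr11:98909591-98909650, plus strand), passed with the replicate block, although only 3 Tbx5-/+ arrays had it well above background and it entered the test through the Tbx5 WT arrays.
Igfbp4 A_51_P398971: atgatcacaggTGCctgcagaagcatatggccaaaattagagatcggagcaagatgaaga
The levels were 10.26, 8.65, 7.32 and 7.95 in Tbx5-/+ and 10.63, 9.66, 9.02 and 9.61 in Tbx5 WT. Pools of number 1 were the highest of both groups, and each Tbx5-/+ pool lay below the Tbx5 WT pool of its number. The difference was -1.18 ± 0.58 (limma, unadjusted p = 0.0691, adjusted p = 0.252), 2.27-fold, and its adjusted p with the replicate block was 0.0363. Without Tbx5-/+ 1 it was -1.75 (adjusted p = 0.0289), and without Tbx5-/+ 6 it was -0.77 (adjusted p = 0.541). The second probe, A_52_P257502 (chr11:98913334-98913393, from transcript base 1442), gave 11.45, 10.64, 9.19 and 10.16 in Tbx5-/+ and 11.71, 10.94, 10.93 and 11.14 in Tbx5 WT, a difference of -0.82 ± 0.43 (limma, adjusted p = 0.269; 0.0805 with the replicate block; 0.0479 without Tbx5-/+ 1). It was -0.43 without Tbx5-/+ 6 (adjusted p = 0.575) and -0.50 under the percentile and centred scalings.

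Igfbp7, a vascular and mesenchymal secreted protein, had overlapping groups. On A_51_P472292 (chr5:77778355-77778414, minus strand) the levels were 7.55, 8.84, 8.63 and 8.73 in Tbx5-/+ and 7.18, 8.99, 9.06 and 8.54 in Tbx5 WT. Number 1 was the lowest pool of both groups. The difference was -0.01 ± 0.44 with a 95% interval from -0.99 to 0.98 (limma, adjusted p = 0.994), and it took the other sign under the percentile, quantile and centred scalings, at 0.27 to 0.32.

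Under VSN, the summed level of 12 endothelial markers was 38200 to 46600 on the Tbx5-/+ arrays. It was 47200 to 60400 on the Tbx5 WT arrays, without overlap (log2 ratio -0.28, exact permutation p = 0.0286, the smallest possible). This sum was taken under VSN only, where the array medians were 9.47 to 9.83 in Tbx5-/+ and 9.88 to 10.06 in Tbx5 WT. Of those 12 genes, 8 had a lower and 4 a higher mean in Tbx5-/+. At an unadjusted limma p under 0.05, 5 were lower, where 18.6% of all probes were. With the replicate block 3 passed the adjusted threshold, all lower, where 10.8% of all probes were called lower. They were Kdr, Tie1 and Sox17, the last of which is also on the foregut endoderm list. The part of the endothelial markers in the values of the binding proteins and of Igf1r was not tested. In bulk tissue, fewer cells of a type and less RNA per cell cannot be told apart. The summed levels of the other 7 marker lists overlapped between the groups, with exact permutation p of 0.4 to 0.971. Liver bud markers ranged from 7500 to 158000 between Tbx5-/+ arrays and from 20000 to 138000 between Tbx5 WT arrays.

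**Figure D3:**
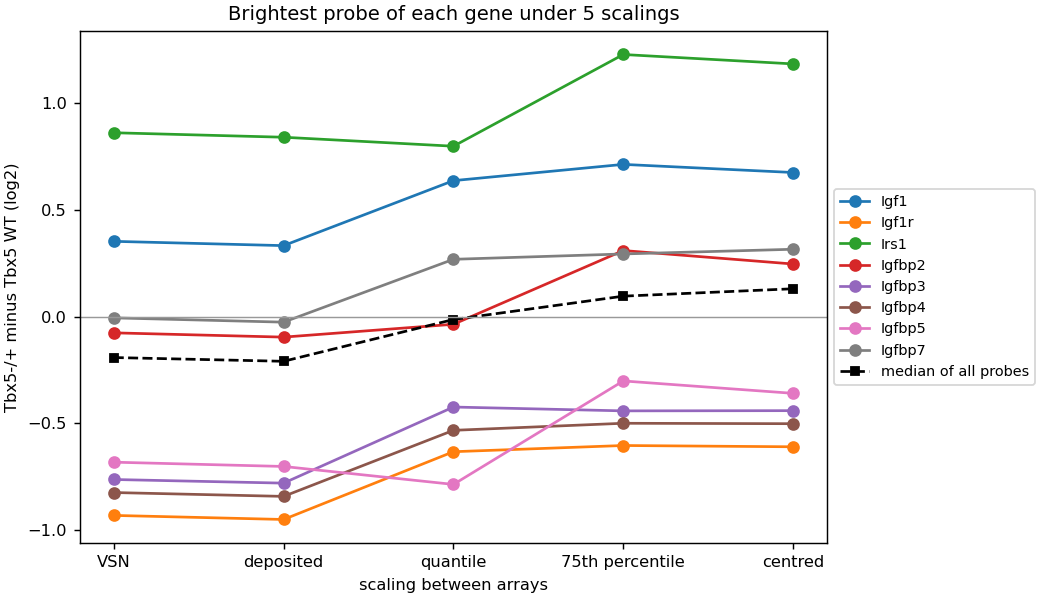
Difference between Tbx5-/+ and Tbx5 WT (log2, vertical axis) of the brightest tested probe of each gene under 5 ways of scaling the arrays, with the median of all probes tested as a dashed line. Igf1r, Igfbp3, Igfbp4 and Igfbp5 stay below 0 and below the dashed line and Igf1 and Irs1 stay above it, whereas Igfbp2 and Igfbp7 cross 0.

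Promoters were read because TBX5 binds T-box elements. The core GGTGTG, or CACACC on the other strand, was searched in RefSeq windows of 300 bases (GRCm38.p6), which reach from 250 bases before each gene's start to 50 after it. All 8 members had a window, 9 in all, and 1 of these windows held the core, that of Igfbp4, against 19.0% of the 32851 windows of all genes. The match begins 47 bases before the start and is capitalised in the stretch below (GRCm38.p6, chr11:99041147-99041243, plus strand).
Igfbp4 promoter: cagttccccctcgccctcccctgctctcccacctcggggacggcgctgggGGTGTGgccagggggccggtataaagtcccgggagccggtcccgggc
A match of these letters is a description of the sequence, and binding was not measured here.

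The rest of the pathway was read from a list of 46 genes on the array besides the members, each represented by its brightest tested probe. Of these genes 39 were tested. With limma, 0 had an adjusted p under 0.05, and 5 were lower and 0 higher at an unadjusted p under 0.05 (12.8% and 0%, against 18.6% and 3.28% of all probes). Differences were negative for 30 genes and positive for 9, with a median of -0.21 beside -0.19 for all probes. This balance turned with the scaling: 20 were negative after quantile normalization and 12 under each of the percentile and centred scalings. Under each of the latter the unadjusted calls were 3 lower and 3 higher. Of all 20028 probes, 1737 were lower and 3076 higher at that p after percentile scaling, and 1337 and 3245 after centring. The 5 genes lower under VSN at an unadjusted p under 0.05 were negative under all 5 scalings. With the replicate block 3 genes passed, all lower (Pappa, Pdpk1 and Gsk3b), a share of 7.69% against 10.8% of all probes called lower in that fit. The 5 genes at an unadjusted p became 13 without Tbx5-/+ 1, 10 without Tbx5-/+ 5 and 3 without Tbx5 WT 5 or without Tbx5 WT 7. The shares of all probes in these fits were 41.74%, 20.73%, 12.31% and 11.14%.

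Pappa, the protease that cleaves IGFBP4 and IGFBP5, had the smallest p of the list. On A_51_P340027 the levels were 9.54, 8.95, 7.98 and 9.18 in Tbx5-/+ and 10.98, 9.94, 9.93 and 10.81 in Tbx5 WT, without overlap. Its difference was -1.51 ± 0.37, 2.84-fold (limma, adjusted p = 0.104; 0.0333 with the replicate block; 0.0235 without Tbx5-/+ 1). It stayed at -1.23 after scaling to the 75th percentile and at -1.14 after quantile normalization.

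Within the PI3 kinase and Akt branch, 9 of 10 genes had a negative difference under VSN, 7 after quantile normalization, 6 after percentile scaling and 5 after centring. Of the 10 genes 2 had an unadjusted p under 0.05, a share close to the 18.6% of all probes. Pdpk1, the kinase that activates Akt, differed by -1.80 ± 0.52 on its brightest probe and by -1.46 and -1.51 on the other two (limma, adjusted p = 0.136, 0.126 and 0.0984). Gsk3b, a kinase that Akt inhibits, differed by -1.21 ± 0.41 and -1.46 ± 0.37 on its probes (limma, adjusted p = 0.174 and 0.106; 0.0359 and 0.0386 with the replicate block).

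Among adaptors, Shc1, which links the receptor to Ras, and Grb10, an imprinted inhibitor of the receptor, also had non-overlapping groups on their brightest probes. Shc1 differed by -0.80 ± 0.31 (limma, adjusted p = 0.202) and Grb10 by -0.70 ± 0.29 (limma, adjusted p = 0.216). Under the percentile, quantile and centred scalings Shc1 was at -0.49, -0.433 and -0.474, and Grb10 at -0.339, -0.842 and -0.375. The dimmer Grb10 probes A_51_P187151 and A_52_P40363 differed by -1.685 and -1.302 (limma, adjusted p = 0.173 and 0.2784). With the replicate block their adjusted p was 0.0402 and 0.0524. Igf2, the main embryonic IGF, was at 15.46, 16.54, 17.37 and 16.84 in Tbx5-/+ and 16.14, 15.23, 16.26 and 15.33 in Tbx5 WT, named here, like Igf2r and Insr, for its role and not by the naming rule. Its difference was 0.81 ± 0.41 (limma, adjusted p = 0.260), and without Tbx5-/+ 1 it was 1.18 (adjusted p = 0.0401). A dimmer Igf2 probe, A_51_P516833, gave 0.411 ± 0.364 (limma, adjusted p = 0.4947), and 0.67 without Tbx5-/+ 1, which did not pass (adjusted p = 0.1595). Igf2r, which clears IGF2, gave 0.40 ± 0.30, and Insr, the insulin receptor, gave -0.06 ± 0.22 (limma, adjusted p = 0.427 and 0.888).

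**Figure D4:**
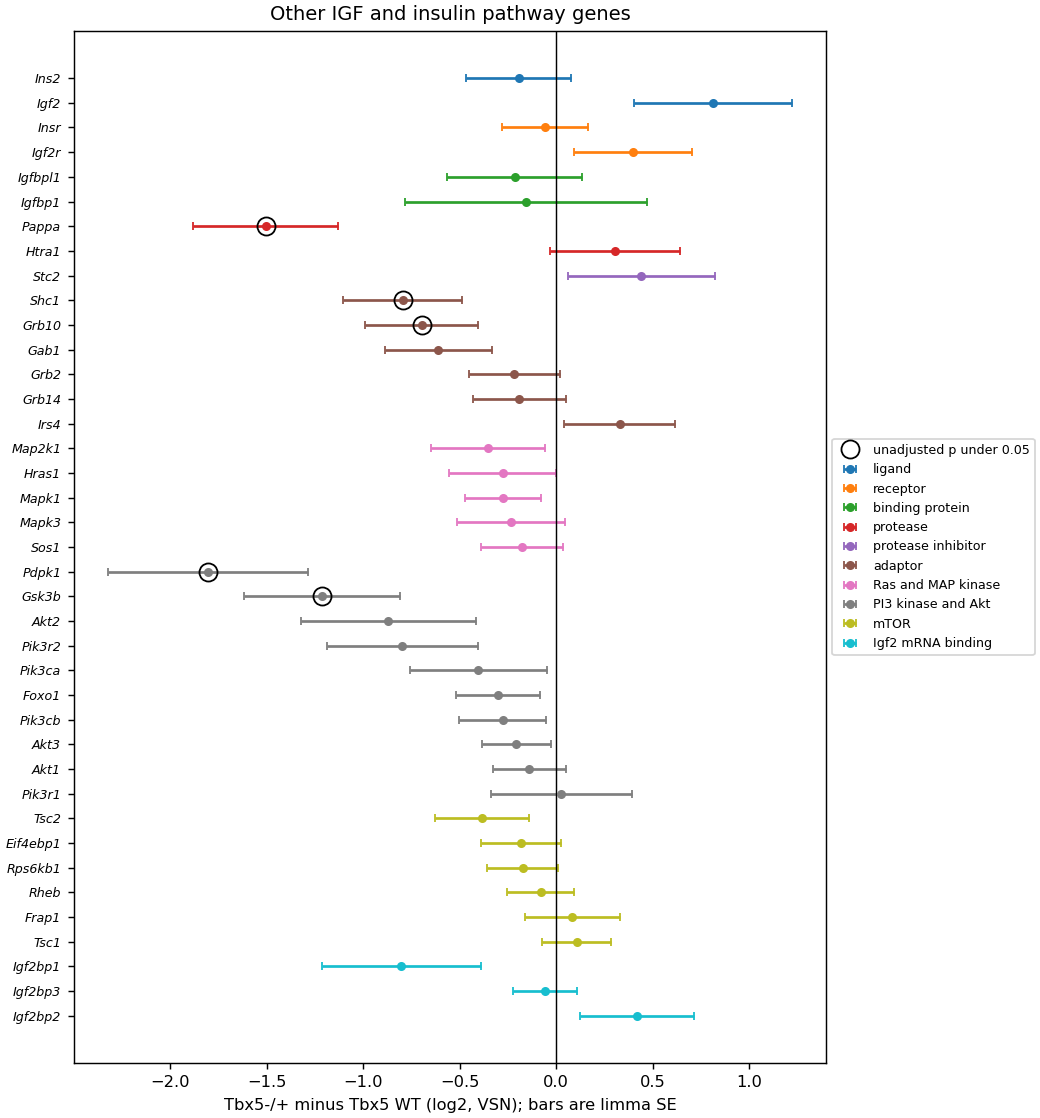
Difference between Tbx5-/+ and Tbx5 WT (log2, horizontal axis, bars are limma's SE) for the brightest tested probe of 39 other genes of the pathway, coloured by role, with black rings around the 5 at an unadjusted p under 0.05. Under VSN all 5 ringed genes lie to the left of 0, with Pdpk1 at -1.80 the farthest.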

How the data were processed

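Cy3-labelled cRNA of 8 RNA pools was hybridized to Agilent whole mouse genome arrays with 60-base probes. Per the file headers, the intensity values deposited by the authors came from Agilent Feature Extraction 10.5.1.1 and are on a linear scale. The authors also deposited a table of log2 values for 22405 probes, made by background correction and VSN, which served as an alternative.

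Local background was subtracted from mean signals, 1115 outlier spots were left out, VSN was programmed in R 4.3.3 (90% of probes kept, 7 iterations) and spots of a probe were averaged. The computed and deposited values had r of at least 0.9999 on each array. The shift of 1 array, Tbx5-/+ 6, sat at the limit set for the fit. limma 3.58.1 stood in for the study's SAM test, whose package was not installed. The fit was tested on simulated data with independent noise. Pools of the same number did not deviate together there, and each probe's spread was capped at the median spread. The number of arrays limits the precision, and p-values measure the spread between pools.

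Pools sharing a number deviated together across probes (r = 0.438, 0.399, 0.592 and 0.138 for numbers 1, 5, 6 and 7), and 7 of 8 pools were closest to their own number. This pairing comes from the data, since the labels give shared numbers without saying what they mean. The slide coincides with the array label and was used as a block and split.

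Some genes of the pathway are not reported here and are in no count of the pathway list. The members, the pathway list and the 8 marker lists were chosen with earlier results of these data known. The text names every member probe, Tbx5 and at most 6 other pathway genes at an unadjusted p under 0.05 in order of p. It also names the 3 probes most like the member probe of smallest p. Outside this rule it names Igf2, Igf2r, Insr, Wnt2, Aldh1a2 and 3 endothelial markers. Transcript positions are those of the array design on mm9. An annotation of mm9 was not used here, so exons and untranslated regions were not looked up. The reading frame of a coding probe was the open one with most cysteine codons.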

Additional observations from a re-analysis of the deposited data

Results flagged for a closer look

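Among 36 groups of 4 values examined, 3 held a pool far from the others, where chance gives about 1 in 20. Igfbp2 A_51_P423308 in Tbx5-/+ 6 was at 12.91, with the nearest Tbx5-/+ pool at 13.45 (gap over range 0.871, above Dixon's critical value for 4 values). Igfbp3 A_52_P253179 in Tbx5 WT 7 was at 10.49, with the nearest at 10.21 (0.831). Igfbp7 A_51_P472292 in Tbx5-/+ 1 was at 7.55, with the nearest at 8.63 (0.839).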

How the results depend on the processing

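No member probe passed the adjusted threshold under the other scalings, the deposited values, the filters, the array label block or trend and robust settings. The count of 0 became 3 with the replicate block, 12 with array weights and 0 to 11 when 1 array was left out. Of all probes, 11.2%, 43.6% and 0% to 19% were called in these fits. The 7 probes at an unadjusted p under 0.05 became 4 with percentile scaling, 3 with centring and 11 with the replicate block. They became 14 with array weights and 5 to 14 with 1 array left out. In the same order, the shares of all probes were 24.03%, 22.88%, 34.75%, 52.31% and 11.14% to 41.74%, beside 21.85% in the main fit. For the other pathway genes the adjusted count of 0 became 3 with the replicate block, 13 with array weights and 0 to 6 with 1 array left out. Their unadjusted count of 5 became 9 with the array label block, 9 with the replicate block and 17 with array weights. It was 3 to 13 with 1 array left out. Of all probes, 27.42%, 34.75%, 52.31% and 11.14% to 41.74% had such a p in these fits. No pair of binding proteins passed under any alternative (0 to 0). With signs flipped within numbers (smallest p 0.125) no pair could pass. In the other settings a single pair at the smallest possible p could not pass, so the count does not show stability.

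Of the 18 member probes 3 changed sign. Igfbp2 was 0.31 with percentile scaling, 0.25 with centring, 0.093 with array weights and -0.14 to 0.066 with 1 array left out. Igfbp7 was 0.29 with percentile scaling, 0.27 with quantile normalization, 0.32 with centring, 0.11 within array 1, 0.053 with array weights and -0.43 to 0.29 with 1 array left out. Igfbp3 A_51_P228472 was 0.066 within array 1. Among pairs, Igfbp2 minus Igfbp7 was 0.016 with percentile scaling and -0.40 to 0.42 with 1 array left out. Igfbp3 minus Igfbp5 was 0.36 and Igfbp4 minus Igfbp5 was 0.25 with quantile normalization. Leaving 1 array out gave -0.18 to 0.026 and -0.35 to 0.07 for these pairs and -0.13 to 0.20 for Igfbp3 minus Igfbp4. The cause was not tested. Probes above background on few Tbx5-/+ arrays (Igfbp3 A_51_P228472 and A_52_P851352, Igfbp5 A_51_P204153) are limited by their signal, and the fit on probes well above background on 8 arrays leaves them and Igfbp4 A_51_P398971 out.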
